A study of Mus musculus with 6 samples.

Results

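The proteasome genes measured here are the rows of the deposited expression table that name a single gene called Psm, a letter from a to g and a digit, without pseudogene copies. The rule found 47 genes among 37757 rows, and the authors' test was run for 45 of them. They were placed by known role in the alpha and beta rings of the core particle, the base and the lid of the regulatory particle, assembly chaperones, activators, an inhibitor, and the inducible subunits of the immunoproteasome. Psmc3ip was caught by its name only, since it encodes a meiotic recombination factor, and is kept in the count of 47. The proteasome genes Psmd1 and Psmg3 share their rows with other genes and are not members.

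The cells were kidney epithelial cells cultured from mice of strain C57/Bl6J, 8 weeks old, with the genotype Bim-/- Bmf-/-, and were sequenced as mRNA libraries. The 3 attached libraries and the 3 libraries from cells kept in suspension for 4 h all carry this genotype, so no cells with intact Bim and Bmf enter the comparison. Bim and Bmf promote apoptosis, and the titles of the suspended samples name anoikis, the death of cells that lose attachment. How many mice or cultures the libraries came from is not given in the sources used here, so p-values may measure technical spread only.

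The proteasome is the protease that degrades proteins tagged with ubiquitin. Its core is a barrel of stacked alpha and beta rings, with the cutting sites inside on the beta subunits Psmb5, Psmb6 and Psmb7. The base unfolds substrates with its ATPases and the lid removes their ubiquitin. In cells exposed to interferon gamma, and constitutively in many leukocytes, Psmb8, Psmb9 and Psmb10 take the place of Psmb5, Psmb6 and Psmb7 and form the immunoproteasome, which is known for making peptides for MHC class I. The transcription factor NRF1 (gene Nfe2l1) is known to raise proteasome genes when proteasome activity is short, through antioxidant response elements.

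Promoter sequences are shown for chosen members: 2 inducible subunits, each after the constitutive subunit it replaces, then the activator Psme1 and the lid subunit Psmd11. Psmb5 and Psme1 did not pass the authors' test, and the activators that did, Psme2 and Psme3, are not shown. Each runs from 250 bases before to 49 bases after the start site (position 0) on the gene's strand, is credited to RefSeq (GRCm38.p6), and has in capitals the matches to TGACNNNGC (antioxidant response element), CCAAT, the interferon-stimulated response element (GAAA, 2 bases of any kind, then GAAA) and TTCNNNGAA (gamma-activated site) on either strand.
Psmb5 (chr14:54617946-54618245, minus strand): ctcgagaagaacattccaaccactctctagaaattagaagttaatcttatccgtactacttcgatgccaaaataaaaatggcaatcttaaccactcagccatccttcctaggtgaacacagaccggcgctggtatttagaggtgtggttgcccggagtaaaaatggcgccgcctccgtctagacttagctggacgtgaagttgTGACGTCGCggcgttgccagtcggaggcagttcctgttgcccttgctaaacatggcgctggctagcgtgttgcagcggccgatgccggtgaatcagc
Psmb8 (chr17:34197945-34198244, plus strand): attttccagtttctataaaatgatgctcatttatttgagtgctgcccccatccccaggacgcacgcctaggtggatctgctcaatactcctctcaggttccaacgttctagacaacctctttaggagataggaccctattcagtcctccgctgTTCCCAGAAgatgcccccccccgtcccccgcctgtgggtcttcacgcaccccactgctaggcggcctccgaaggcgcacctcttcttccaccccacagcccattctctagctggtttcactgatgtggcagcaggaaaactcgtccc
Psmb6 (chr11:70525107-70525406, plus strand): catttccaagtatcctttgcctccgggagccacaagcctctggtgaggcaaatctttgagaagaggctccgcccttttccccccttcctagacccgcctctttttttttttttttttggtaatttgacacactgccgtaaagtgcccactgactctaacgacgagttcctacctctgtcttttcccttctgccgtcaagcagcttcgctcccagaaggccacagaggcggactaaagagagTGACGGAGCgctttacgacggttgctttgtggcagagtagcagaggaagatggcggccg
Psmb9 (chr17:34187281-34187580, minus strand): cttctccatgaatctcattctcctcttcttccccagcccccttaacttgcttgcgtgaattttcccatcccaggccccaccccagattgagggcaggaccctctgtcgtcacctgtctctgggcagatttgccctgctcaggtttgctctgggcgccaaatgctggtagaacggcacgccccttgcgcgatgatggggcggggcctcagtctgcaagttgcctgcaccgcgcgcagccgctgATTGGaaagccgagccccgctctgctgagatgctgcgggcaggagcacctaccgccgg
Psme1 (chr14:55578244-55578543, plus strand): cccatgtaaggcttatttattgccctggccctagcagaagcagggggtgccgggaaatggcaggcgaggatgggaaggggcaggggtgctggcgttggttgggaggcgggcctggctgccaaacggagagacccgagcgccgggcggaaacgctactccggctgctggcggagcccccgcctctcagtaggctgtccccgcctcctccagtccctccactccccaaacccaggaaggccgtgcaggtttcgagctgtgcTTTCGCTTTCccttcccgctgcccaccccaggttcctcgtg
Psmd11 (chr11:80428365-80428664, plus strand): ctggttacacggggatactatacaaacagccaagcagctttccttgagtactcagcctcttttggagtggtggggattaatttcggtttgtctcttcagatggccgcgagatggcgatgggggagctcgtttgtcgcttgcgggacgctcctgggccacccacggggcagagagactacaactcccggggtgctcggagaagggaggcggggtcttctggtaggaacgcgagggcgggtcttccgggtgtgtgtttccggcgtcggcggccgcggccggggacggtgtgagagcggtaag

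The constitutive Psmb5 and Psmb6 windows each held 1 match to the antioxidant response element, starting at positions -47 and -9. The Psmb8 window held a gamma-activated site match at position -97, the Psmb9 window a CCAAT match on the opposite strand at position -8, and the Psme1 window an interferon-stimulated response element match at position 9. The Psmd11 window held none of these 4. Promoters were matched for 39 of the 47 members. The antioxidant response element letters occurred in 6 of these (15.4%), against 17.0% of the tested genes with a promoter and 14.0% of all genes with one. CCAAT occurred in 15 members (38.5%, against 43.2% of tested genes), the interferon element in 5 (12.8%, against 3.47%) and the gamma-activated site in 3 (7.69%, against 8.31%). A looser NF-kB pattern (GGG, 5 bases of any kind, then CC) occurred in 23 members (59.0%) and in 72.7% of tested genes and is not capitalised. Where 2 patterns overlap they were counted separately. The 5 genes with the interferon element were Psmb3, Psmd4, Psmd9, Psme1 and Psmg4, of which Psmb3 fell, Psmg4 rose and the other 3 did not pass the test, as given below.

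The table gives 1 FPKM per gene and condition (fragments scaled to transcript length and library size), a log2 fold change, and a q, the authors' p adjusted for the number of tests. A gene is said to have risen or fallen when its q was below 0.05. Depth is unknown and no spread between libraries can be given. In the authors' deposited table Bim (Bcl2l11), labelled as deleted, stood at 9.53 FPKM attached and 51.4 FPKM suspended, and Bmf at 2.95 and 4.30 FPKM, and since which exons were deleted was not used here, a value for the whole gene does not check the genotype. All 8 markers of kidney epithelium were present, between 95.4 and 773 FPKM attached and between 30.9 and 752 FPKM suspended, per the authors' deposited table. Of these, 3 rose and 4 fell, while of all rows with a mean of at least 20 FPKM 21.6% were called higher and 37.8% lower. The largest changes were falls of Pax2 (150 to 30.9 FPKM) and Pax8 (104 to 37.1 FPKM) and a rise of Cdh1 (95.4 to 201 FPKM), per the authors' deposited table. Fold changes carry a general shift: among genes with 1 FPKM or more in each condition the middle one changed by -0.11 on the log2 scale, per the authors' deposited table.

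Proteasome transcripts that passed the test were more often lower than higher in suspension, and few changed by as much as 2-fold. The rises were in the lid, the immunoproteasome, the activators, the assembly chaperones and the inhibitor Psmf1. Of 45 tested members, 19 fell (42.2%), 7 rose (15.6%) and 19 did not pass the test, per the authors' deposited table. Over all tested rows naming 1 gene the same rule called 51.1% of 14404 rows, 26.3% lower and 24.8% higher. Highly expressed genes were called lower more often: among 4676 rows with a mean of at least 20 FPKM, 59.4% were called, 37.8% lower and 21.6% higher, against 17 (45.9%) and 4 (10.8%) of the 37 members at that level, per the authors' deposited table. The share of members that fell was thus nearer to that of other genes of high level than to that of all genes. The members' median log2 fold change was -0.22, against -0.04 over all tested rows, and at a mean of at least 20 FPKM it was -0.24 for members against -0.17 for all rows. Once the general shift is removed the median over members was -0.11. A 2-fold change was reached by 3 members, all higher (Psmb8, Psmb9 and Psmd11), while 19.7% of all tested rows were called at 2-fold, 12.5% higher and 7.16% lower, per the authors' deposited table. All 19 falls kept their direction after removal of the general shift of -0.11, the smallest of them being -0.24 (Psmc6). The 7 rises could not change direction, since the shift is negative. In bulk RNA, fewer cells of a type and less RNA per cell cannot be told apart.

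**Figure D1:**
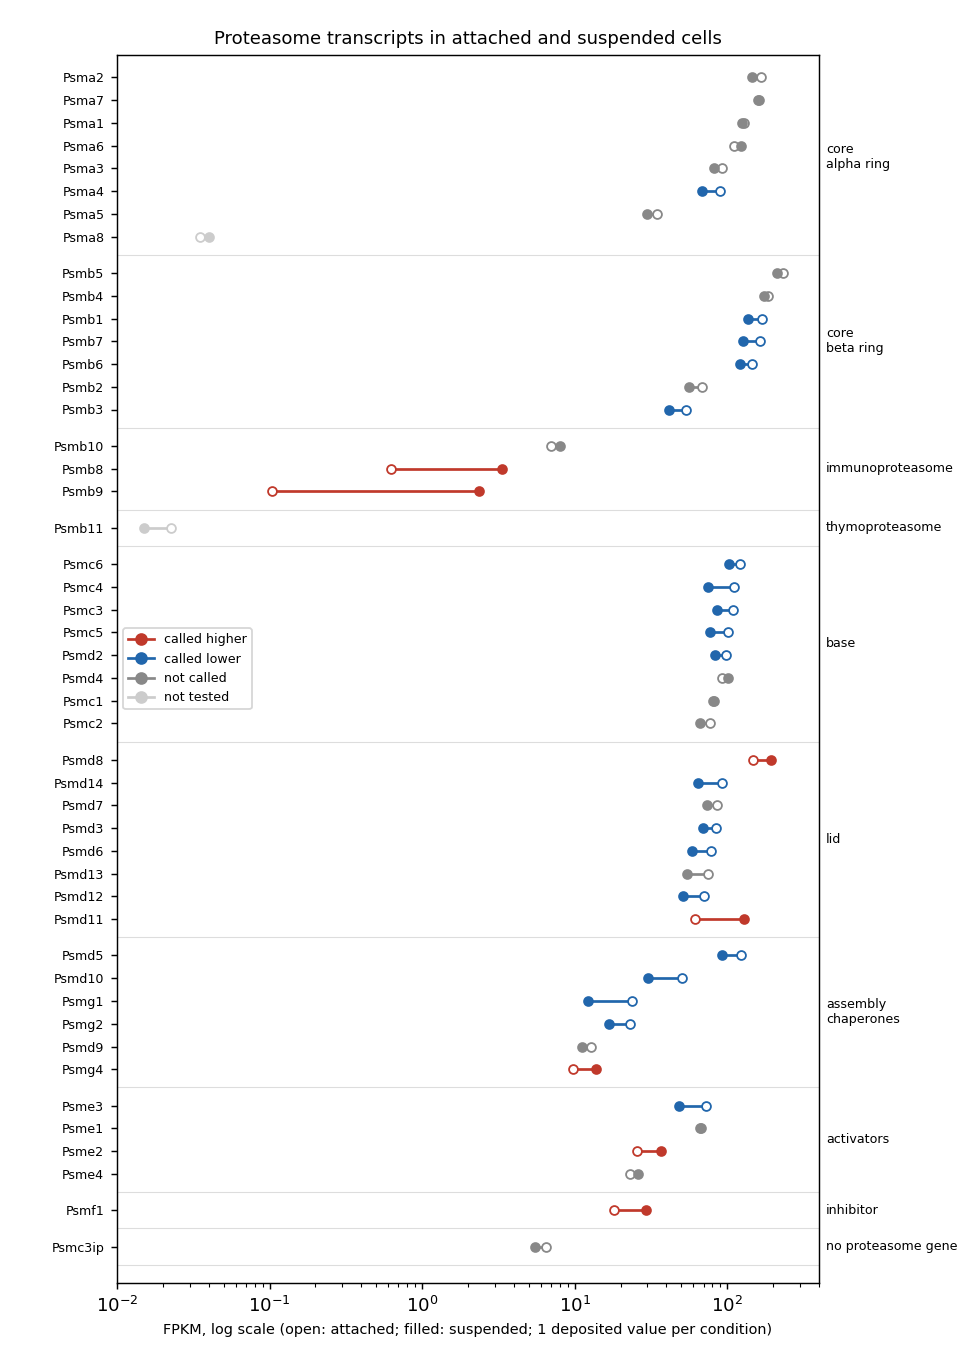
FPKM of the 47 genes on a log axis, with an open circle for attached and a filled circle for suspended cells (1 deposited value per condition, no error), by structural group and coloured by the authors' call. All tested core, base and lid genes lie between 29.7 and 231 FPKM, most with small shifts to the left, while Psmb8 and Psmb9 start below 1 FPKM and move to the right.

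In the core particle, which holds the cutting sites, 5 of 14 tested genes fell, 1 of them in the alpha ring and 4 in the beta ring, per the authors' deposited table. These 35.7% of core genes were close to the 37.8% called lower among all rows of at least 20 FPKM. Of 7 tested alpha genes, which form the outer rings and the gate for substrates, 1 fell and 6 did not pass the test, per the authors' deposited table. Psma4 fell in the authors' deposited table from 89.2 to 67.9 FPKM (1.31-fold lower, q = 0.00637). The others ranged from a log2 fold change of -0.22 (Psma5) to 0.14 (Psma6), with q from 0.121 to 0.938. Psma7 stood at 160.5 and 159 FPKM and Psma1 at 129 and 126 FPKM, per the authors' deposited table. Psma8, a testis form of an alpha subunit, was at 0.0349 and 0.0398 FPKM and was not tested, per the authors' deposited table.

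Of the 7 constitutive beta genes 4 fell (57.1%), and 3 did not pass the test, per the authors' deposited table. Among all rows of at least 20 FPKM 37.8% were called lower, a difference that was not tested. Psmb7, which carries the trypsin-like site, went in the authors' deposited table from 164 to 126 FPKM (1.30-fold lower, q = 0.00348). Psmb6, which carries the caspase-like site, went in the authors' deposited table from 145 to 121 FPKM (1.20-fold lower, q = 0.0384). The structural subunits Psmb3 (53.9 to 41.7 FPKM, q = 0.0114) and Psmb1 (168 to 137 FPKM, q = 0.0137) fell as well, per the authors' deposited table. Psmb2 missed the threshold (68.1 and 56.6 FPKM, q = 0.0528), as did Psmb4 (186 and 174 FPKM, q = 0.474), per the authors' deposited table. Psmb5, with the chymotrypsin-like site, had the highest level of all members, 231 FPKM attached and 214 FPKM suspended (q = 0.831), per the authors' deposited table. None of the 14 tested core genes rose at q below 0.05 in the Cuffdiff result, and at an unadjusted p below 0.05 there were 0 higher and 6 lower. Beta genes summed to 1017 FPKM attached and 869 FPKM suspended, a change of -14.5%, and alpha genes to 783 and 732 FPKM, a change of -6.49%, per the authors' deposited table. Relative to the general shift the beta sum changed by -7.90% and the alpha sum by 0.74%, so the alpha sum was not lower on that scale. Whether the rings differ was not tested.

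Among the groups with more than 1 member, the base showed the most even levels. Its 8 genes lay between 77.0 and 121 FPKM attached, a 1.58-fold range, per the authors' deposited table. The 14 core genes had a 6.69-fold range. This evenness holds for genes caught by the naming rule only, since Adrm1 of the base, named otherwise, stood lower, at 38.2 FPKM attached. Of the 8 members, 5 fell and 3 did not pass the test, with 0 higher and 6 lower at an unadjusted p below 0.05 in the Cuffdiff result. The share that fell was 62.5%, against 37.8% among all rows of at least 20 FPKM, a difference that was not tested. Psmc4, an ATPase of the unfolding ring, fell in the authors' deposited table from 110.3 to 74.96 FPKM (1.47-fold lower, q = 0.000185). Its ring partners Psmc5 (100.6 to 77.0 FPKM, q = 0.00113), Psmc3 (109 to 86.2 FPKM, q = 0.0171) and Psmc6 (121 to 103 FPKM, q = 0.0458) fell less far, per the authors' deposited table. The remaining ATPases Psmc1 (82.5 and 80.3 FPKM, q = 0.786) and Psmc2 (77.0 and 66.2 FPKM, q = 0.0805) did not pass the test, per the authors' deposited table. Psmd2, a scaffold that binds ubiquitin receptors, fell from 98.0 to 82.8 FPKM (q = 0.0431), and Psmd4, a ubiquitin receptor, stood at 93.0 and 102 FPKM (q = 0.337), per the authors' deposited table. The row that merges Psmd1, the other scaffold of the base, with Armc9 and Gm21972 went in the authors' deposited table from 99.1 to 77.0 FPKM (q = 0.00171).

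Of the 8 lid genes, 4 fell (50%) and 2 rose (25%). Among all rows of at least 20 FPKM, 37.8% were called lower and 21.6% higher, and whether the lid differs was not tested. Psmd11, a scaffold subunit that touches both the base and the core and is known as a target of FOXO4 in human embryonic stem cells, had the largest change among members above 1 FPKM in both conditions. It rose from 61.2 to 129 FPKM (2.10-fold, log2 1.07, q = 0.000185) in the authors' deposited table, and went from the lowest of the 8 lid levels to the second highest. Its gene (chr11:80428615-80473248, GRCm38) shares no exon with another annotated protein-coding gene. Psmd8, known to join the lid last during assembly, rose from 148 to 193 FPKM (1.30-fold, q = 0.000518) in the authors' deposited table and was the highest lid gene in both conditions.

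The lid's deubiquitinase Psmd14 fell in the authors' deposited table from 92.1 to 64.4 FPKM (1.43-fold lower, q = 0.000185). Psmd12 (70.2 to 51.4 FPKM, q = 0.000185), Psmd6 (77.8 to 58.8 FPKM, q = 0.000831) and Psmd3 (84.2 to 68.9 FPKM, q = 0.0164), scaffold subunits like Psmd11, also fell, per the authors' deposited table. Psmd7, the partner of Psmd14, had in the authors' deposited table values of 85.3 and 74.0 FPKM (q = 0.106). The lid's summed FPKM was 694 in both conditions, with the higher values of Psmd11 and Psmd8 offsetting the lower values of the others, while the base summed to 791 FPKM attached and 672 FPKM suspended, per the authors' deposited table. Relative to the general shift the lid's sum changed by 7.70% and that of the base by -8.56%. The range from lowest to highest lid gene widened from 2.42-fold to 3.74-fold.

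**Figure D2:**
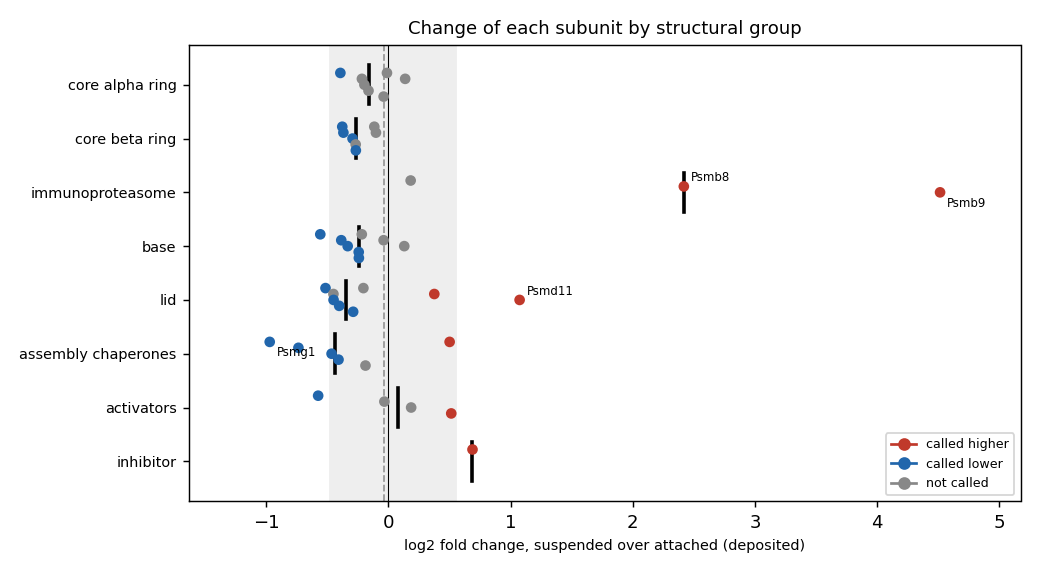
Deposited log2 fold change (suspended over attached) of the 44 tested proteasome genes by structural group, coloured by the authors' call, with a black bar at each group's median. The grey band and dashed line are the quartiles and median of all 14404 tested rows naming 1 gene (those listed at 0 in 1 condition have no finite value and are left out); most core and base genes lie inside the band, and Psmd11, Psmb8 and Psmb9 lie far to its right.

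Assembly chaperones, which build the particle and then leave it, had the lowest median log2 fold change of the groups with more than 1 member, -0.44. Of 6 tested, 4 fell, 1 rose and 1 did not pass the test, per the authors' deposited table. Over all tested rows naming 1 gene, 26.3% were called lower and 24.8% higher. Among rows of at least 20 FPKM, the background used for the groups above, 37.8% were lower and 21.6% higher. The chaperones lie on both sides of that level, and whether they differ was not tested. Psmg1, which with Psmg2 guides assembly of the alpha ring, fell in the authors' deposited table from 23.9 to 12.2 FPKM (1.96-fold lower, q = 0.000185), the largest fall of any member. Psmg2 fell in the authors' deposited table from 23.2 to 16.8 FPKM (1.38-fold lower, q = 0.00526). Psmg4, which pairs with Psmg3, rose from 9.78 to 13.8 FPKM (1.41-fold, q = 0.0421), per the authors' deposited table. The row that merges Psmg3 with Gm26938 and Tmem184a stood in the authors' deposited table at 40.4 and 35.0 FPKM (q = 0.388). Among chaperones of the base, Psmd10 (gankyrin, which binds Psmc4) fell in the authors' deposited table from 50.5 to 30.3 FPKM (1.67-fold lower, q = 0.000185). Psmd5 fell from 123 to 92.7 FPKM (q = 0.000355), and Psmd9 stood at 12.8 and 11.2 FPKM (q = 0.591), per the authors' deposited table.

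Of 4 activators, caps that can replace the regulatory particle on the core, 1 rose, 1 fell and 2 did not pass the test. Among all rows of at least 20 FPKM, 21.6% were called higher and 37.8% lower, so these counts do not set the activators apart. Psme2, the beta subunit of the cytoplasmic activator PA28 and known to be induced by interferon gamma, rose in the authors' deposited table from 25.7 to 36.6 FPKM (1.43-fold, q = 0.00637). Psme1, the alpha subunit of that activator, had in the authors' deposited table values of 67.8 and 66.3 FPKM (q = 0.8504). Psme2 transcript was therefore 37.8% of Psme1 attached and 55.3% suspended. The genes lie on chromosome 14, 5911 bases apart. Psme3, which forms the nuclear activator, fell from 72.4 to 48.6 FPKM (1.49-fold lower, q = 0.000185), and Psme4 (PA200) stood at 23.0 and 26.2 FPKM (q = 0.197), per the authors' deposited table. Psmf1 (PI31), which inhibits the core particle in vitro, rose in the authors' deposited table from 18.2 to 29.3 FPKM (1.61-fold, q = 0.000185). The row in which Psme2b is merged with 9930111J21Rik1 had in the authors' deposited table values of 6.11 and 6.13 FPKM (q = 0.991).

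Among the inducible subunits, Psmb9 and Psmb8 rose from near 0 and Psmb10 did not pass the test. Of all tested rows naming 1 gene 24.8% were called higher, and whether the inducible subunits differ was not tested. Psmb9 and Psmb8, below 1 FPKM attached, may have reached the test only through their suspended values. Psmb9 (chr17:34181987-34187764, GRCm38) went in the authors' deposited table from 0.104 to 2.38 FPKM (22.9-fold, log2 4.52, q = 0.00863). Psmb8 (chr17:34197721-34201454, GRCm38) went in the authors' deposited table from 0.629 to 3.36 FPKM (5.34-fold, log2 2.42, q = 0.00171). Psmb10, on chromosome 8, had in the authors' deposited table values of 7.04 and 7.99 FPKM (q = 0.796). With a pseudocount of 1 FPKM the log2 fold changes of Psmb9 and Psmb8 were 1.61 and 1.42, since both started below 1 FPKM. The thymus form Psmb11 was at 0.0226 and 0.0151 FPKM and was not tested, per the authors' deposited table.

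The inducible transcripts stayed scarce beside the constitutive ones. Psmb9 was 0.0716% of Psmb6 attached and 1.97% suspended, and Psmb8 was 0.272% of Psmb5 attached and 1.57% suspended, per the authors' deposited table. Psmb10 was 4.30% of Psmb7 attached and 6.33% suspended, per the authors' deposited table. The 3 inducible genes summed to 7.77 FPKM attached and 13.7 FPKM suspended, against 541 and 460.4 FPKM for their 3 constitutive counterparts, per the authors' deposited table. These ratios have 1 value per condition and no test.

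**Figure D3:**
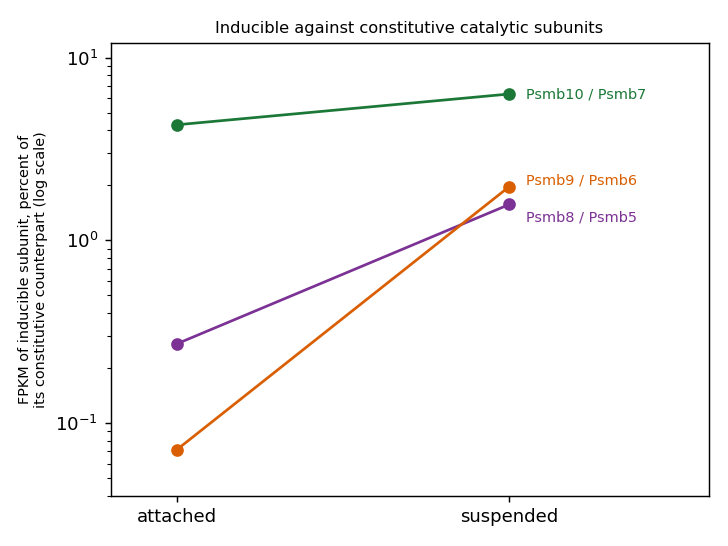
FPKM of each inducible subunit as a percent of the constitutive subunit it replaces, in attached and suspended cells, on a log axis (1 deposited value per condition, no error). Psmb9 relative to Psmb6 moves from 0.0716% to 1.97%, and all 3 ratios stay below 7%.

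Psmb9 and Psmb8 are neighbours in the MHC region, 9956 bases apart, each beside a gene of the peptide transporter TAP. Psmb9 and Tap1 run in opposite directions from RefSeq start sites 226 bases apart, so 275 of the 300 bases printed for Psmb9 also belong to the promoter window of Tap1. Tap1 rose from 2.40 to 17.0 FPKM (q = 0.000185) and Tap2 from 2.89 to 7.14 FPKM (q = 0.00171), per the authors' deposited table. The annotated exons of Psmb9 and Tap1 share 212 bases, and without a statement that strand was counted their reads there cannot be told apart, so the value of Psmb9 is uncertain.

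Leukocytes hold immunoproteasome constitutively, and some of their markers were higher in suspension too. All 4 tested of 9 leukocyte markers rose, against 24.8% of all tested rows naming 1 gene, per the authors' deposited table. Markers near 0 in both conditions were not tested, so a scarce marker could reach the test through its suspended value alone. The count of rises therefore carries little weight. The list summed to 26.2 FPKM attached and 54.3 FPKM suspended, most of it from Cd68, per the authors' deposited table. Ptprc (CD45), a general leukocyte marker, went from 1.42 to 12.4 FPKM and Cd74 from 0.328 to 3.46 FPKM (q = 0.000185 for each), per the authors' deposited table. Csf1r went from 0.729 to 3.25 FPKM (q = 0.0271) and Cd68 from 23.4 to 34.9 FPKM (q = 0.000185), per the authors' deposited table. The markers Itgam (0.123 and 0.113 FPKM), Lyz2 (0.155 and 0.0174), Cd3e (0.0103 and 0.0558) and Adgre1 (listed at 0 and 0.00328 FPKM) were near 0, per the authors' deposited table. Their part in the rise of Psmb8 and Psmb9 was not tested. Of markers for other cells, 0 of 5 endothelial genes reached the test, and 1 of 5 fibroblast genes (Pdgfra, 0.155 to 1.81 FPKM) and 1 of 4 podocyte genes (Podxl, 1.601 to 7.87 FPKM) did and rose, per the authors' deposited table. Pdgfra, scarce when attached, may likewise have reached the test only through its suspended value.

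The test was much less precise for a few members. The log2 fold change divided by the deposited test score, which grows with the authors' error estimate, had a median of 0.20 over the tested members. It was 1.63 for Psmd13 and 1.29 for Psmb5, above the 95th percentile of 0.43 for rows of at least 20 FPKM, and among the scarce inducible subunits it was 2.66 for Psmb9, 0.95 for Psmb8 and 0.89 for Psmb10, per the authors' deposited table. Psmd13, a lid subunit, stood at 74.8 and 54.8 FPKM (log2 -0.45, q = 0.533) in the authors' deposited table, a fold change like that of Psmd12, which was called. For Psmd13, Psmb5 and Psmb10 a missed threshold says little about the size of the change. Psmb9 and Psmb8 passed the threshold, but the size of their rises is imprecise too. Psmb9 had a log2 fold change of 4.52 with a score of only 1.70. Psmd13 shares 342 exon bases with Sirt3 on the opposite strand, and Psmb5 holds the microRNA Mir686. Members with a ratio near the median have such features too. Psmb7 shares 405 exon bases with Nek6 and holds a microRNA, with a ratio of 0.20. Psmd14 also holds a microRNA, with a ratio of 0.20. Whether these features bear on the precision was not tested. In all, 7 members share exon bases with another protein-coding gene, all on the opposite strand: Psma4, Psmb7, Psmb9, Psmc3, Psmd13, Psme1 and Psmc3ip, of which Psma4, Psmb7, Psmb9 and Psmc3 were called. Their values are uncertain if strand was not counted. Psmc3ip had in the authors' deposited table values of 6.53 and 5.48 FPKM (q = 0.522).

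Other genes of the pathway were followed in lists chosen by role. For comparison with their counts, 24.8% of all tested rows naming 1 gene were called higher and 26.3% lower. Of 11 tested genes of the proteasome and its cofactors that have other names, 3 rose and 3 fell, with a median log2 fold change of -0.12, per the authors' deposited table. Zfand2a (AIRAP) and Zfand5, zinc finger proteins that bind the proteasome, rose from 26.6 to 248 FPKM and from 73.5 to 336 FPKM (q = 0.000185 for each), per the authors' deposited table. Akirin2, needed to bring proteasomes into the nucleus, rose in the authors' deposited table from 36.9 to 54.5 FPKM (q = 0.000185). The deubiquitinase Uchl5 fell from 28.4 to 14.9 FPKM (q = 0.000185), and its receptor on the base, Adrm1, from 38.2 to 29.2 FPKM (q = 0.00425), per the authors' deposited table. Ube3c, a ubiquitin ligase found on proteasomes, fell in the authors' deposited table from 32.7 to 24.1 FPKM (q = 0.000185). Pomp, the maturation factor of the core (163 and 150.4 FPKM, q = 0.375), Shfm1 of the lid (63.9 and 58.7 FPKM, q = 0.387) and the deubiquitinase Usp14 (75.2 and 74.8 FPKM, q = 0.961) did not pass the test, per the authors' deposited table.

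In the pathway of NRF1, 1 of 7 tested genes rose and 6 did not pass the test. Nfe2l1 itself had in the authors' deposited table values of 112 and 128 FPKM (q = 0.125). Ngly1, which removes sugars from NRF1 so that it becomes active, rose in the authors' deposited table from 9.66 to 13.2 FPKM (q = 0.0216). Ddi2, the protease that cuts NRF1, shares its row with Rsc1a1, and that row rose in the authors' deposited table from 7.65 to 13.8 FPKM (q = 0.000185).

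Of 11 tested genes for ubiquitin, its activating enzymes and the shuttle factors that carry substrates to the proteasome, 4 rose and 5 fell. Over all tested rows naming 1 gene, 24.8% were called higher and 26.3% lower. Ubb, a polyubiquitin gene, rose from 127 to 297 FPKM (q = 0.000185), per the authors' deposited table. Rps27a, which encodes ubiquitin fused to a ribosomal protein, had in the authors' deposited table values of 160.1 and 145 FPKM (q = 0.326). The largest changes were those of Sqstm1 (305 to 1951 FPKM) and Ubqln4 (58.7 to 21.8 FPKM, q = 0.000185 for each), a rise and a fall, per the authors' deposited table.

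Genes of MHC class I antigen processing rose in 6 of 11 tested cases, and 5 did not pass the test, with a median log2 fold change of 0.51, per the authors' deposited table. Over all tested rows naming 1 gene, 24.8% were called higher and 26.3% lower, with a median of -0.04. Besides Tap1 and Tap2, Nlrc5, a transactivator of class I genes, rose from 0.0887 to 0.465 FPKM and Tapbpl from 4.53 to 11.5 FPKM (q = 0.000185 for each), per the authors' deposited table. Genes of interferon gamma signalling split, with 3 higher and 3 lower of 7. Irf1, a known activator of Psmb9, rose from 5.03 to 14.2 FPKM and the receptor chain Ifngr2 from 27.5 to 81.1 FPKM (q = 0.000185 for each), per the authors' deposited table. Ifngr1, the other chain, fell from 71.0 to 43.8 FPKM (q = 0.000185) and Socs1 from 3.36 to 1.72 FPKM (q = 0.00128), per the authors' deposited table.

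**Figure D4:**
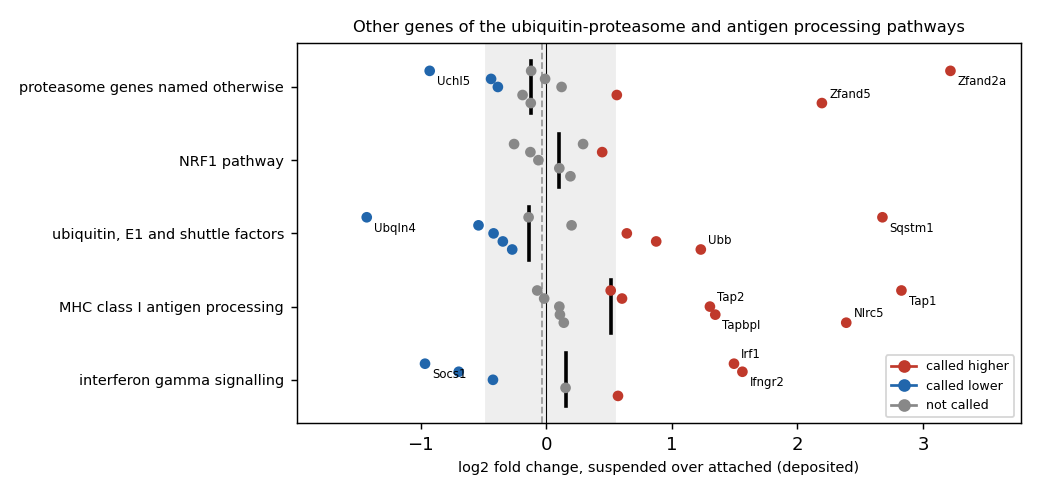
Deposited log2 fold change (suspended over attached) of tested genes in 5 lists around the proteasome, coloured by the authors' call, with a black bar at each list median and the grey band and dashed line for the quartiles and median of all tested rows naming 1 gene. The class I list lies to the right of the others with a median of 0.51, and Zfand2a, Tap1 and Sqstm1 have the highest values.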

How the data were processed

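Libraries of mRNA, 3 attached and 3 suspended, were read by an Illumina HiSeq machine, per the labels' protocols. The submitters' processing notes name TopHat, Bowtie, Cufflinks 1.0.3 and Cuffdiff with mm10, and no source used here gives settings, gene models or strand handling. FPKM in the deposited table are the authors' values, 1 per condition. The authors also deposited a log2 ratio, a score from their test, and a p-value with its adjusted q-value, per the file headers. The letters A and S closing the condition names were taken to mean attached and suspended. Depth is unknown, so no interval per value is given.

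Calls are the authors' q below 0.05 over 14748 tested rows of 37757. The deposited p-values go no lower than 5e-05, so 8 members share q = 0.000185. No test was run here. Members, groups and lists were chosen with earlier results of these data known, and the background of rows of at least 20 FPKM and the rescaled sums of groups were added after seeing the data. All members could be named, and of other lists the 4 called genes with the largest change. Adrm1, Ube3c, Pomp, Shfm1, Usp14, Nfe2l1, Rps27a, the merged rows and the genes sharing exons with members were named after their values or positions were seen. Of the listed genes Paaf1 and Irf8 were not matched, and Adgre1 was read under its RefSeq synonym Emr1. Positions and exon overlaps come from GENCODE M21 (GRCm38, the build mm10), and promoters from RefSeq. Protein sequences were not used here. The calculations were tested on simulated data. Python 3.11.15, NumPy 2.4.6, pandas 2.3.3, SciPy 1.17.1 and matplotlib 3.10.9 were used.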

Additional observations from a re-analysis of the deposited data

How the results depend on the processing

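Counts of calls depended most on a required 2-fold change, which left 3 members called, 3 of them higher and 0 lower, with 0 in the core rings, 0 in the base, 1 in the lid, 0 among chaperones and 0 among activators. A q below 0.01 left 12 members lower, 2 called in the core rings and 2 in the base. With at least 1 FPKM in both conditions the immunoproteasome kept Psmb10 alone, with 0 calls and a median log2 of 0.18. With a pseudocount of 1 the median log2 of the immunoproteasome was 1.42, and the rise of Psmb8 relative to Psmb5 was 2.90-fold, against 5.79-fold without one. The rise of Psmb9 relative to Psmb6 was 27.5-fold without a pseudocount, 14.6-fold with 0.1 and 3.68-fold with 1. Values were rescaled by the median gene or by summed FPKM without mitochondrial and 2 microRNA rows. The median log2 of the base moved from -0.24 to -0.14 and -0.13, respectively. No called member changed direction under either, and the rises could not, since both shifts were negative. Recomputing the Benjamini-Hochberg adjustment called 27 members in place of 26, with 20 lower in place of 19 and 6 in the core rings in place of 5, the added gene being Psmb2. Leaving out Psmc3ip changed no count of calls. No paired analysis was possible because the deposited table holds 1 value per condition, and for the same reason no replicate could be left out and no test between libraries run.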
